A study of Mus musculus with 8 samples.

Results

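The genes described here are the tumour suppressor p53 and a set of its target genes: Trp53, Cdkn1a, Mdm2, Ccng1, Trp53inp1, Sesn1, Sesn2, Zmat3, Phlda3 and Polk. They were taken as every probe set of the array whose platform gene symbol is one of these 10 names. This gave 20 probe sets for 9 genes, out of 45037 probe sets and 18193 named genes in all. Trp53 itself had no probe set named to it in the annotation used here and was not analysed here, so the values below are those of the 9 target genes.

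The arrays measured total RNA of bone marrow cells sorted as positive for the surface protein Sca1 and negative for lineage markers (Sca1+Lin-), a fraction that holds blood stem and progenitor cells. There were 5 samples from Sca1-MALT1 transgenic mice and 3 from wild-type (WT) mice. The transgene is named for Sca1, whose promoter is active in stem and progenitor cells, and for MALT1, a protease and scaffold that carries antigen receptor signals to NF-kB and is an oncogene of MALT lymphoma. No further allele or agent is named for either genotype, and RNA of both was linearly amplified before labelling. The sources used here give no mouse age, no number of mice per sample and no species for the MALT1 sequence. They also do not say that each sample came from a mouse of its own, so the spread behind every p-value may be partly technical.

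p53 is a transcription factor that is kept at a low level by the ubiquitin ligase MDM2 and accumulates when DNA is damaged or an oncogene is active. It then switches on genes that stop the cell cycle, repair DNA, limit growth or kill the cell, and it switches on Mdm2, which closes a feedback loop. In bone marrow this response sets how stem and progenitor cells react to irradiation and restrains the growth of lymphoid tumours. Much of the control of p53 acts on the protein, which arrays do not measure, so the transcripts of its targets are commonly read as a sign of its activity.

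p53 binds DNA as a tetramer, on a pair of 10-base half-sites built around a central C and G. RefSeq promoter windows of assembly GRCm38.p6, each reaching from 250 bases before to 50 bases after an annotated gene start, were matched by symbol to 7 of the 9 genes (10 windows). Trp53inp1 and Zmat3 had no entry. The windows were searched for the p53 half-site consensus, which reads the same on both strands, and for pairs of half-sites that lie at most 13 bases apart, of which 1 matches fully and the other has at most 1 mismatch. A half-site was found in 5 of the 10 windows, against 8.36% of all 32851 windows, and a pair in 2 of the 10, against 0.627% of all. The 3 windows printed here are those of the genes with a pair (Cdkn1a and Ccng1) and that of Mdm2. The groups did not overlap in the brightest Mdm2 probe set, as in 7.13% of all genes, but overlapped in its other probe sets. Capitals mark half-sites, including the weaker partner of a pair, and each sequence runs 5′ to 3′ on the strand of its gene.
Cdkn1a, upstream start, chr17:29090729-29091028, plus strand: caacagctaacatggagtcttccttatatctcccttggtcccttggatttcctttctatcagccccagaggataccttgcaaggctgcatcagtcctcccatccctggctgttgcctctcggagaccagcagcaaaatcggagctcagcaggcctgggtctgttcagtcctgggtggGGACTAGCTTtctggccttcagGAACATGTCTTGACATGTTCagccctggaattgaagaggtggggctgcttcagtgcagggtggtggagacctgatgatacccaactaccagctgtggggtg
Ccng1, chr11:40755237-40755536, minus strand: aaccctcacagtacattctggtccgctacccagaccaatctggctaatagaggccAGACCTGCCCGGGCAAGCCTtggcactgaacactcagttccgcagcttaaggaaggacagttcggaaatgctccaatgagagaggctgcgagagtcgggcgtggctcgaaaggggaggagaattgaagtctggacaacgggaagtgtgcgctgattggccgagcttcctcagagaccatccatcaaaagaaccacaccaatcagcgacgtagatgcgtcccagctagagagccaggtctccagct
Mdm2, chr10:117710709-117711008, minus strand: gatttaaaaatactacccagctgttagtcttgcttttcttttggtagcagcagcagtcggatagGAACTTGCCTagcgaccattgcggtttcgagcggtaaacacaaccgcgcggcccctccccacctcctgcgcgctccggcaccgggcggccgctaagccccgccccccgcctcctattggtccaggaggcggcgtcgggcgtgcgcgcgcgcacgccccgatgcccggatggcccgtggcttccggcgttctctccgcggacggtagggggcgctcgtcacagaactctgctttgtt
In the Cdkn1a window full half-sites began at positions -73 and -51 from the gene start, and the one at -51 was followed directly by a weaker partner, which together make the long run of capitals. The pair of full half-sites also lay within the allowed distance. The motif CATG lies in the full half-site of that run and again in its partner. CATG equals its own reverse complement and lies in 61.1% of all windows. The window of the other annotated Cdkn1a start, chr17:29093519-29093818, held no half-site. In the Ccng1 window a weaker partner directly precedes the full half-site at -185. The Mdm2 window held 1 half-site, at -186, without a partner. A match describes the letters of these windows only.

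None of the 9 target genes passed the test between Sca1-MALT1 and WT cells. The smallest adjusted p was 0.339, for Mdm2 (limma over all 18193 genes, two-sided, Benjamini-Hochberg threshold 0.05), where 0.0879% of all genes passed. An unadjusted p under 0.05 was found for 3 of the 9, Mdm2 and Trp53inp1 with a higher and Polk with a lower mean in Sca1-MALT1 cells, against 10.2% of all genes. The 9 genes did not share a direction: 5 differences were positive and 4 negative, with a median log2 difference of 0.04, beside 0.004 over all genes. The median size of the difference without its sign was 0.36, beside 0.15 over all genes. These sets differ in brightness: all 9 target genes but Phlda3 had a mean signal above that of the median gene. Of all genes, 47.9% had a lower mean signal than Phlda3 and 98.8% a lower one than Trp53inp1. The sizes were not compared with those of equally bright genes. As these are bulk samples, fewer cells with a transcript and less of it per cell cannot be told apart.

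**Figure D1:**
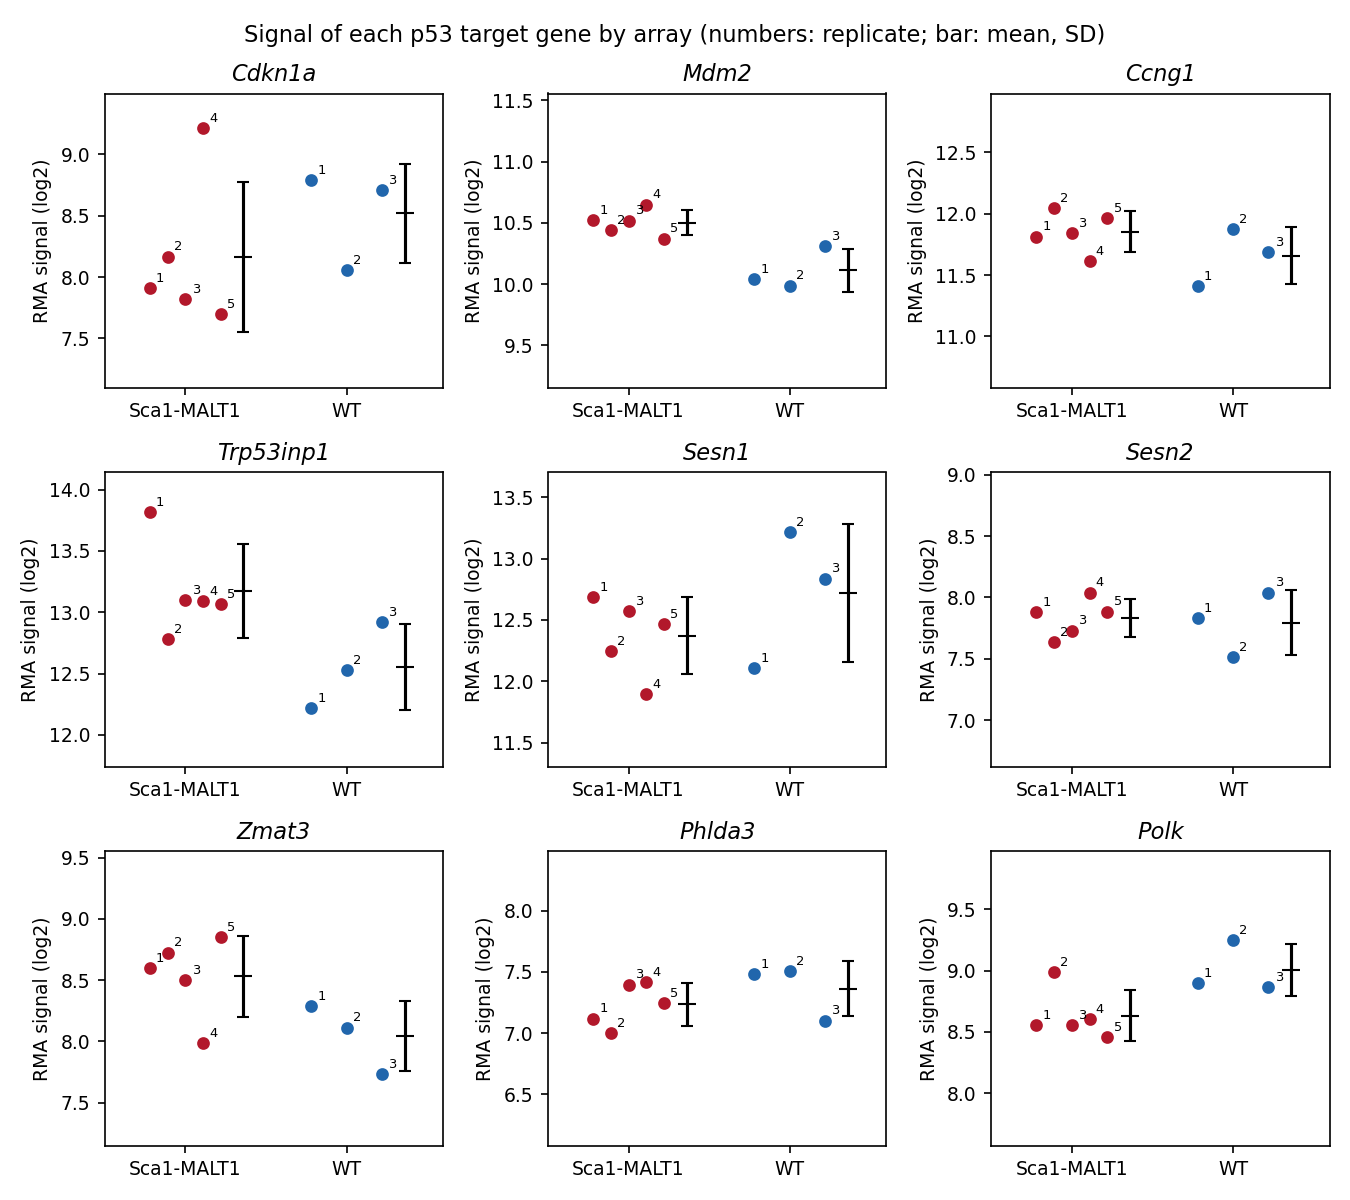
RMA signal (log2) of the brightest probe set of each of the 9 target genes, with 1 point per array numbered by replicate, Sca1-MALT1 in red (5 arrays) and WT in blue (3 arrays); bars are the mean and SD, and each axis spans the same number of log2 units. Mdm2 is the gene whose groups do not overlap (10.37 to 10.65 in Sca1-MALT1, against 9.99 to 10.31 in WT), and Cdkn1a is high in Sca1-MALT1 replicate 4 (9.22).

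Mdm2, the ubiquitin ligase that degrades p53 and is itself a p53 target, was the member whose groups stood apart. Its brightest probe set gave log2 signals of 10.52, 10.44, 10.52, 10.65 and 10.37 in Sca1-MALT1 replicates 1 to 5, against 10.04, 9.99 and 10.31 in WT replicates 1 to 3. Every Sca1-MALT1 array was above every WT array. The means were 10.50 ± 0.10 (SD, n = 5) in Sca1-MALT1 and 10.11 ± 0.17 (n = 3) in WT, a log2 difference of 0.39 (SE 0.12, unadjusted p = 0.0099, adjusted p = 0.339 by limma), which is 1.31-fold with a 95% interval of 1.09 to 1.58. Groups that do not overlap were found in 1 of the 9 target genes, beside 7.13% of all genes.

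The other Mdm2 probe sets did not show this difference. The second read 8.08, 7.91, 7.87, 8.44 and 7.71 in Sca1-MALT1 arrays, against 7.93, 8.08 and 8.21 in WT arrays, a log2 difference of -0.07 (SE 0.17). The third lay at 4.17 to 4.81 in Sca1-MALT1, against 4.47 to 5.00 in WT, below the median of every array (6.40 to 6.48). RMA values carry no background level, so it is not known whether this probe set detected a transcript. The probe sets of a gene can read different stretches or splice forms of its transcript, and which of them carries the difference was not tested.

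Cdkn1a encodes p21, the inhibitor of cyclin-dependent kinases through which p53 arrests the cell cycle. Its brightest probe set read 7.91, 8.17, 7.82, 9.22 and 7.70 in Sca1-MALT1 arrays, against 8.79, 8.06 and 8.71 in WT arrays. Sca1-MALT1 replicate 4 had the highest signal of all 8 arrays, while 3 Sca1-MALT1 arrays lay below all WT arrays, so the groups overlapped in both directions. The means were 8.16 ± 0.61 (n = 5) in Sca1-MALT1 and 8.52 ± 0.40 (n = 3) in WT, a log2 difference of -0.36 (SE 0.35, adjusted p = 0.781 by limma, 95% interval -1.16 to 0.45). The dimmer Cdkn1a probe set was also highest in that array, with 7.91 in replicate 4 and 7.05 to 7.44 in the other Sca1-MALT1 arrays, against 7.37 to 7.73 in WT, and a difference of -0.22 (SE 0.20). With 1 array left out the difference of the brightest probe set ranged from -0.62 without Sca1-MALT1 replicate 4 (adjusted p = 0.289) and -0.59 without WT replicate 2 to -0.22 without WT replicate 1 (adjusted p = 0.936).

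Ccng1 encodes cyclin G1, a p53 target that recruits the phosphatase PP2A to MDM2. It read 11.81, 12.04, 11.84, 11.61 and 11.97 in Sca1-MALT1 arrays, against 11.41, 11.88 and 11.68 in WT arrays. The lowest value was a WT array and the highest a Sca1-MALT1 array, with overlap between. The log2 difference was 0.20 (SE 0.15, adjusted p = 0.70, 95% interval -0.14 to 0.53). It was 0.07 without WT replicate 1 and 0.31 without WT replicate 2 (adjusted p = 0.940 and 0.718 by limma). A dimmer probe set of the same gene read 8.62 to 9.16 in Sca1-MALT1, against 8.23 to 8.72 in WT, and differed by 0.45 (SE 0.16, adjusted p = 0.446 over all probe sets), and the third differed by 0.01 (SE 0.22). All 3 Ccng1 probe sets were thus on the positive side and none passed.

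Trp53inp1, a nuclear and autophagy protein that promotes p53 activity and cell death under stress, had the largest difference among the 9 genes. Its brightest probe set read 13.82, 12.78, 13.10, 13.09 and 13.07 in Sca1-MALT1 arrays, against 12.22, 12.53 and 12.92 in WT arrays. Replicate 1 was the highest of all arrays, and replicate 2 lay inside the WT range while the other 4 Sca1-MALT1 arrays lay above it. The means were 13.17 ± 0.39 (n = 5) in Sca1-MALT1 and 12.55 ± 0.35 (n = 3) in WT, a log2 difference of 0.62 (SE 0.25, unadjusted p = 0.0349, adjusted p = 0.444 by limma), or 1.54-fold with a 95% interval of 1.04 to 2.27. The dimmer probe set did not share it, at 0.01 (SE 0.33). There too replicate 1 was the highest array, 7.97, against 6.67 to 7.23 in WT arrays.

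Zmat3 encodes a zinc finger RNA-binding protein that acts downstream of p53 on splicing and mRNA stability. It read 8.60, 8.72, 8.50, 7.99 and 8.85 in Sca1-MALT1 arrays, against 8.29, 8.11 and 7.74 in WT arrays. Apart from replicate 4, which lay inside the WT range, every Sca1-MALT1 array was above every WT array. The difference was 0.49 (SE 0.21, unadjusted p = 0.051, adjusted p = 0.493 by limma, 95% interval -0.003 to 0.97). With 1 array left out it lay between 0.33, without WT replicate 3, and 0.62, without Sca1-MALT1 replicate 4 (adjusted p = 0.691 and 0.211). Phlda3, a pleckstrin homology domain protein that competes with AKT for membrane lipids, averaged 7.23 ± 0.18 (n = 5) in Sca1-MALT1, with 7.41 in its highest array, and 7.36 ± 0.23 (n = 3) in WT, where the arrays read 7.48, 7.50 and 7.10. The groups overlapped, with a difference of -0.13 (SE 0.15, adjusted p = 0.817 by limma), which lay between -0.26 without WT replicate 3 and -0.06 without WT replicate 2.

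The sestrins are stress proteins that restrain the growth kinase mTORC1. Sesn1 read 12.68, 12.24, 12.57, 11.90 and 12.47 in Sca1-MALT1 arrays, against 12.11, 13.22 and 12.84 in WT arrays. WT replicates 2 and 3 were the highest arrays and WT replicate 1 was among the lowest, so the WT spread (SD 0.56) was larger than the difference of -0.35 (SE 0.27, adjusted p = 0.715 by limma). All 4 Sesn1 probe sets had negative differences, from -0.17 to -0.70, and none passed. The difference of the brightest probe set depended on single arrays: it was -0.66 without WT replicate 1, where the groups did not overlap, -0.23 without Sca1-MALT1 replicate 4 and -0.10 without WT replicate 2 (adjusted p = 0.586, 0.769 and 0.964 by limma). Sesn2 read 7.64 to 8.04 in Sca1-MALT1, against 7.51 to 8.04 in WT, with a difference of 0.04 (SE 0.15, adjusted p = 0.953). Its dimmer probe set spread widely in Sca1-MALT1, from 6.06 to 8.62, against 7.60 to 8.27 in WT, and differed by -0.42 (SE 0.50).

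Polk encodes DNA polymerase kappa, which copies past damaged bases and is induced by p53 in mouse cells. Its brightest probe set read 8.55, 8.99, 8.55, 8.60 and 8.46 in Sca1-MALT1 arrays, against 8.90, 9.25 and 8.86 in WT arrays. Replicate 2 lay inside the WT range and the other 4 Sca1-MALT1 arrays lay below it. The means were 8.63 ± 0.21 (n = 5) in Sca1-MALT1 and 9.005 ± 0.21 (n = 3) in WT, a log2 difference of -0.37 (SE 0.15, unadjusted p = 0.0411, adjusted p = 0.466 by limma, 0.772-fold with a 95% interval of 0.604 to 0.987). The dimmer probe set lay at 5.16 to 5.47 in Sca1-MALT1, against 5.15 to 5.55 in WT, below the array medians, and differed by -0.02 (SE 0.12).

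**Figure D2:**
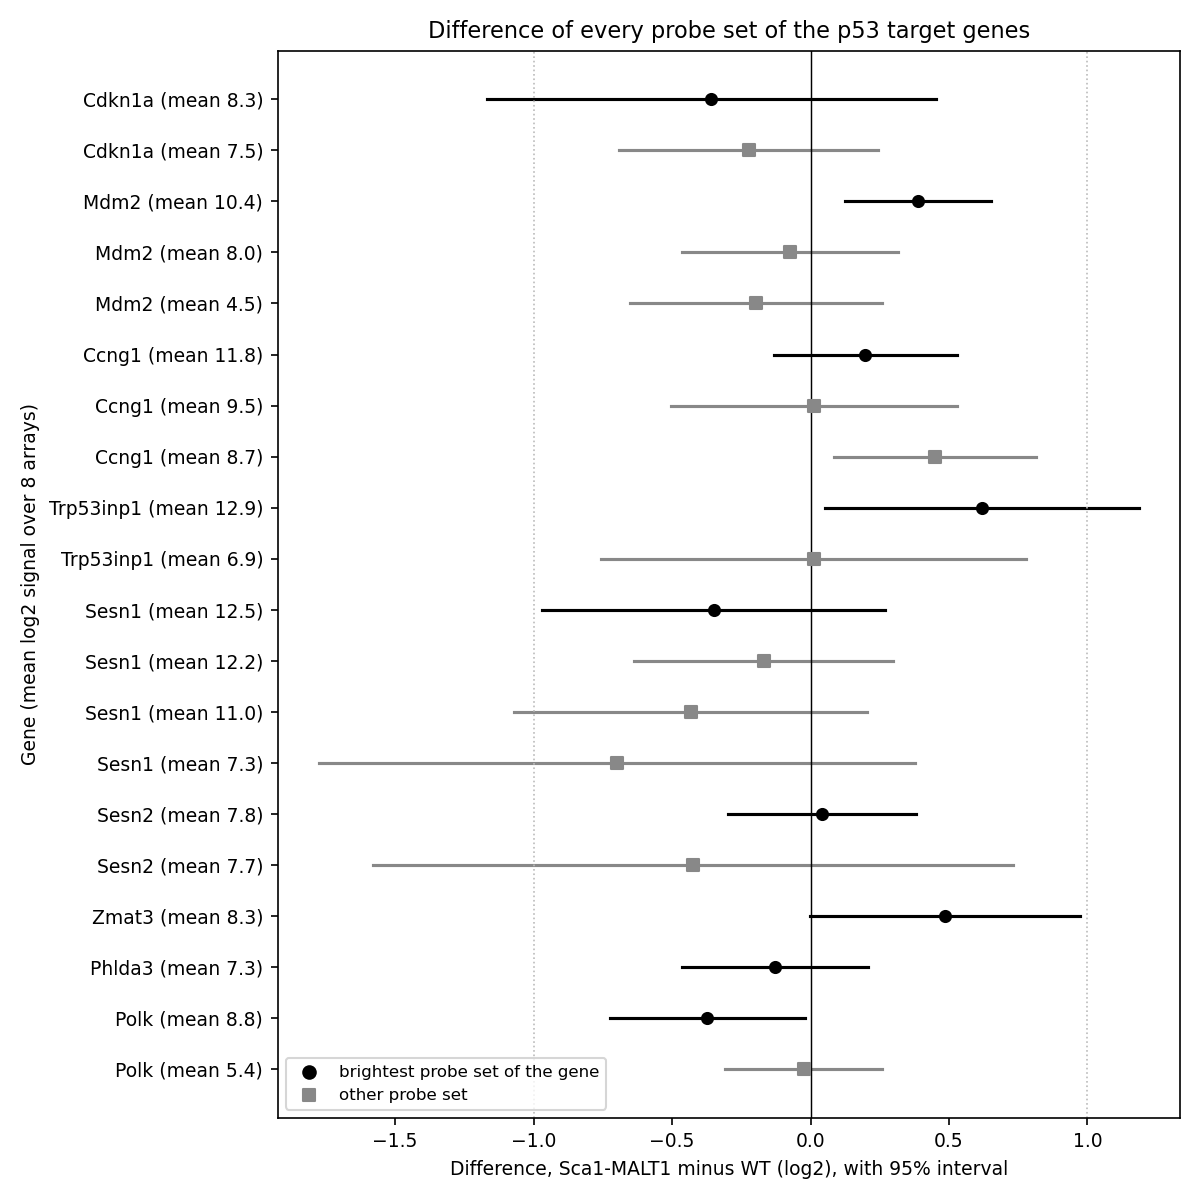
Log2 difference, Sca1-MALT1 minus WT, of each of the 20 probe sets of the 9 target genes, with its 95% interval from limma over all probe sets; circles are the brightest probe set of a gene, squares the others, and dotted lines mark 1 log2 unit. Of the 20 differences 8 are positive and 12 negative, none passed the adjusted threshold, and the probe sets of Mdm2 and Sesn2 lie on both sides of 0.

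Over all 20 probe sets, 8 differences were positive and 12 negative. None passed the adjusted threshold by limma over all 45037 probe sets (lowest adjusted p = 0.389), where 0.06% of all probe sets passed, and 4 had an unadjusted p under 0.05, against 9.47% of all. The groups did not overlap in 1 probe set, that of Mdm2, against 6.83% of all. The intervals bound what these arrays could have missed. For 8 of the 9 genes the 95% interval of the brightest probe set left out a 2-fold rise, the exception being Trp53inp1 (upper bound 1.18), and for 8 of the 9 it left out a 2-fold fall, the exception being Cdkn1a (lower bound -1.16). Among the dimmer probe sets the interval reached a 2-fold fall for the 2 dimmest of Sesn1 (lower bounds -1.07 and -1.78) and for that of Sesn2 (-1.58). A p above the threshold does not show that the genotypes express these genes alike.

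**Figure D3:**
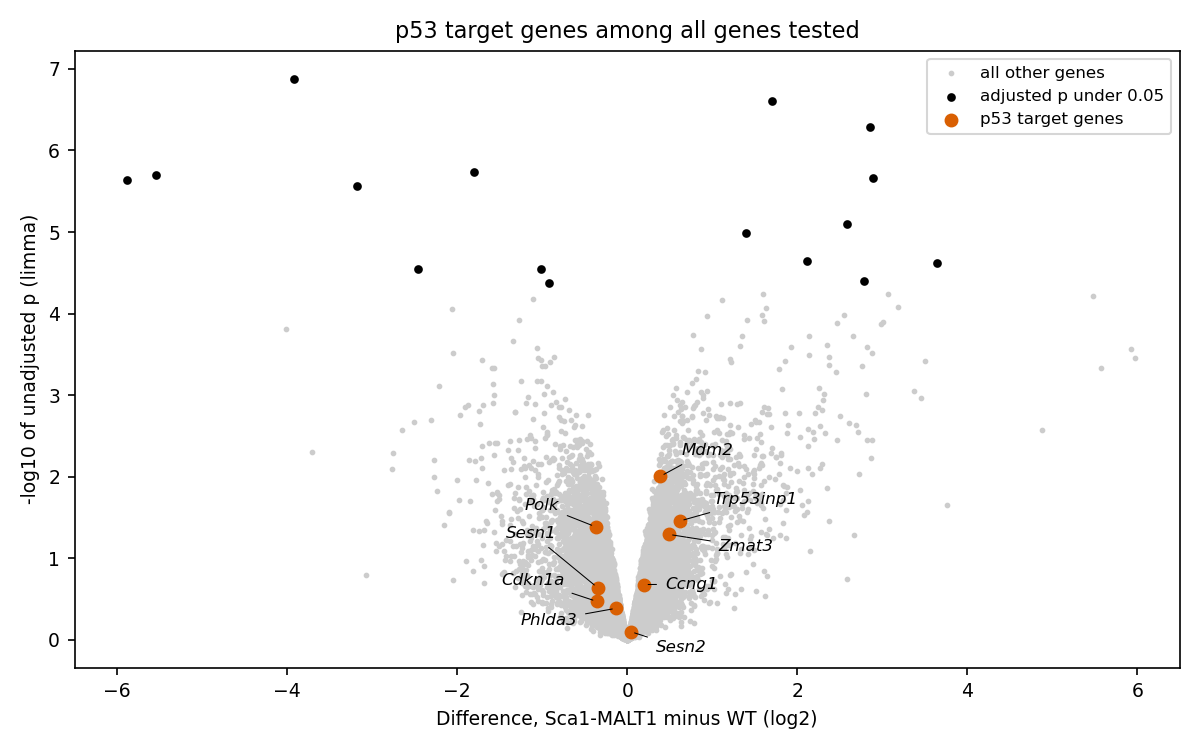
Log2 difference, Sca1-MALT1 minus WT, against -log10 of the unadjusted limma p for all 18193 genes (grey), with the 16 genes past the adjusted threshold in black and the 9 p53 target genes in orange. The target genes lie between -0.37 (Polk) and 0.62 (Trp53inp1), inside the cloud of all genes.

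Other genes of the p53 pathway were grouped by role into 5 lists of 67 genes, of which 62 were measured. The others, Bax, Fdxr, Gls2, Gdf15 and Rpl5, had no probe set named to them alone in the annotation used here. None of the 62 passed by limma (lowest adjusted p = 0.339), 4 had an unadjusted p under 0.05 (6.45%, against 10.2% of all genes), and their median log2 difference was 0.06, with 34 positive and 28 negative differences. The groups did not overlap in 2 of them, 3.23%, against 7.13% of all genes, both with higher signal in Sca1-MALT1 cells. Both shares were below those over all genes.

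Among 10 targets with a role in arrest, 7 differences were positive and the median was 0.29. Sfn, the 14-3-3 sigma protein that holds cells in G2, had 6.110 to 6.480 in Sca1-MALT1, against 5.989 to 6.001 in WT, groups that did not overlap (difference 0.29, SE 0.12, adjusted p = 0.461). Its WT signals were below the array medians, and the highest Sca1-MALT1 signals reached them. Psrc1, a spindle protein, stood at -0.46, the polo-like kinase gene Plk3 at 0.41, and Ptprv, a receptor phosphatase gene, at 0.56. Plk2, a polo-like kinase gene named after its values were seen, had the largest difference of the list at 0.91. Its signal was highest in Sca1-MALT1 replicate 5, which read 11.35, against 6.95 to 8.47 in the other Sca1-MALT1 arrays and 7.26 to 8.27 in WT.

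Among 12 measured targets with a role in cell death, 7 differences were positive and the median was 0.19. Siva1, a death domain protein, had the lowest p of the list, at -0.45 (SE 0.18, adjusted p = 0.458). Bbc3, which encodes the BH3-only protein PUMA, stood at 0.45 (SE 0.21, adjusted p = 0.509), the death receptor gene Tnfrsf10b at 0.24 and Ei24 at -0.24. Pmaip1, which encodes NOXA and was named after its values were seen, spread from 5.31 to 8.75 in Sca1-MALT1, against 5.02 to 7.80 in WT, with a difference of 1.02 (SE 0.81, adjusted p = 0.728).

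Among 13 measured targets with a role in repair or metabolism, 6 differences were positive and the median was -0.03. Xpc, which recognises bulky DNA damage, stood at -0.48 (SE 0.19, adjusted p = 0.452), and Ddb2, its partner in recognising ultraviolet damage, at 0.46 (SE 0.28). Tigar, which lowers glycolytic flux, stood at 0.36. Ddit4, an mTORC1 inhibitor also called REDD1, had 11.46 to 12.59 in Sca1-MALT1, against 8.77, 12.27 and 11.01 in WT replicates 1 to 3, with a difference of 1.32 (SE 0.68, adjusted p = 0.554). WT replicate 1 was the lowest array.

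Regulators of p53 were as mixed. Of 6 feedback genes 3 differences were positive (median -0.02), with the ubiquitin ligase genes Cop1 at -0.52 and Rchy1 at 0.39, Pml at -0.29 and Mdm4, the partner of MDM2, at 0.16 (SE 0.16, adjusted p = 0.789). Of 21 upstream genes 11 were positive (median 0.007). Sirt1, a deacetylase of p53, read 9.94 to 10.41 in Sca1-MALT1, against 9.42 to 9.93 in WT, groups that did not overlap, with a difference of 0.53 (SE 0.16, adjusted p = 0.339). The checkpoint kinase genes Chek1 and Chek2 stood at -1.11 (SE 0.54) and -0.52 (SE 0.25), and Prkdc, the DNA-dependent protein kinase, at -0.50.

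**Figure D4:**
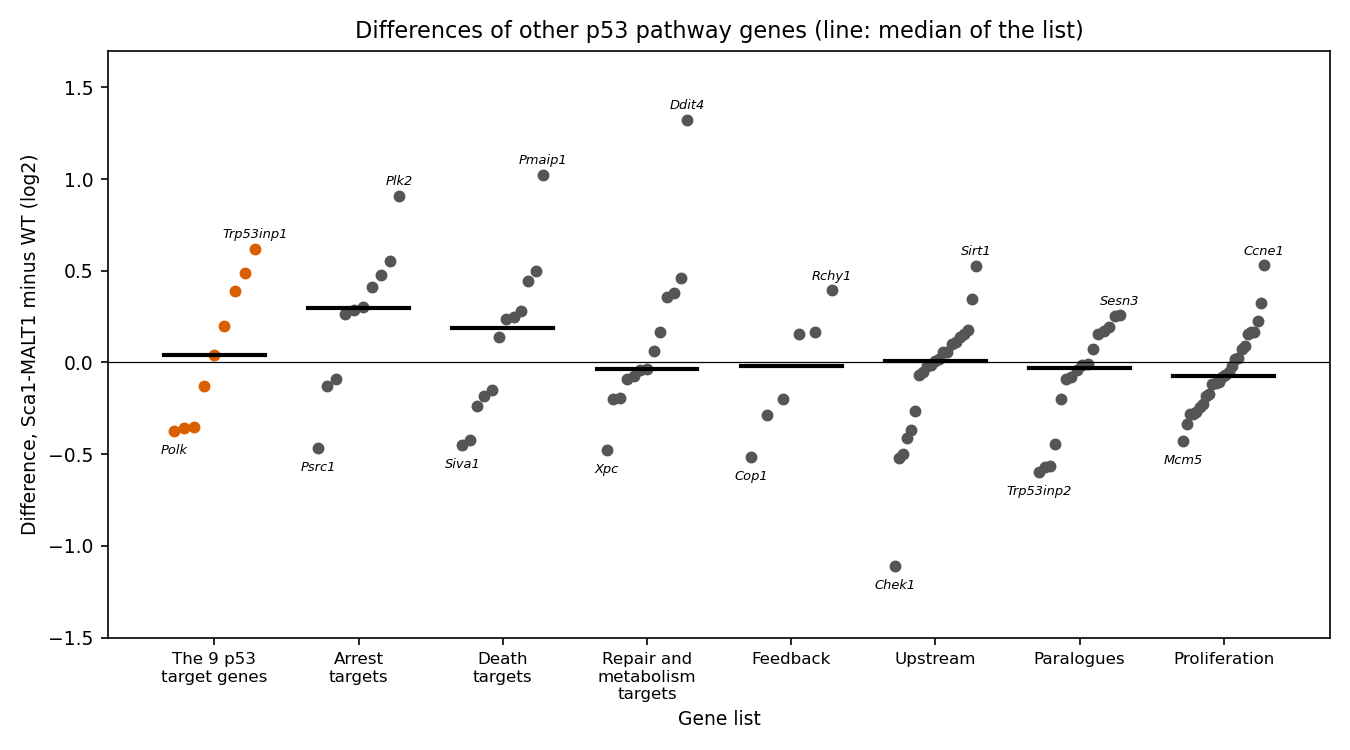
Log2 differences, Sca1-MALT1 minus WT, of the 9 target genes and of 7 lists of related genes, 1 point per gene in order of its difference, with the median of each list as a line and the lowest and highest gene named. Medians lie between -0.07 (proliferation) and 0.29 (arrest targets), and none of the points passed the adjusted threshold.

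The arrays also differed in the markers of other cell types. The mean signal of 12 plasma cell markers was 10.56 to 12.34 in Sca1-MALT1, against 8.91 to 9.09 in WT. All 12 differences were positive, and the groups did not overlap in 8 of the 12, against 7.13% of all genes. The adjusted threshold was passed by 1, against 0.0879% of all genes. It was Jchain, the joining chain of secreted antibodies (log2 difference 2.58, adjusted p = 0.0163 by limma). Xbp1, a regulator of secretion, stood at 1.32 (adjusted p = 0.109). The mean of 11 measured early B cell markers was 7.62 to 8.27 in Sca1-MALT1, against 9.95 to 10.71 in WT. Of the 11 differences 10 were negative, and the groups did not overlap in 6, against 7.13% of all genes. The adjusted threshold was passed by 4 with lower signal in Sca1-MALT1, against 0.0879% of all genes. The surrogate light chain genes Igll1 and Vpreb1 had differences of -3.92 (adjusted p = 0.0023) and -5.55 (adjusted p = 0.0060). The mean of 10 measured stem and progenitor markers spread from 8.09 to 10.39 in Sca1-MALT1, against 9.36 to 10.82 in WT. Of the 10 differences 8 were negative and 2 positive. None of these genes passed, with the receptor gene Flt3 at -1.59 and the transcription factor gene Hlf at -1.33. Neutrophil genes, which the sort should remove, were also bright, with S100a8 averaging 13.93 in Sca1-MALT1 and 14.74 in WT, and S100a9 averaging 12.98 in Sca1-MALT1 and 14.29 in WT. The mean of 9 measured erythroid markers was 10.04 to 11.06 in Sca1-MALT1, against 9.66 to 9.95 in WT, ranges that did not overlap, with the carbonic anhydrase gene Car1 at 2.45 and Gata1 at 0.94. Endothelial markers averaged 6.17 to 7.15 in Sca1-MALT1, against 6.84 to 7.81 in WT, with Emcn at -1.19 and Plvap at -1.69. Their differences were negative in 7 of 8 genes, and the groups did not overlap in 4 of the 8, against 7.13% of all genes. The mean of 8 mature B cell markers was 8.40 to 9.34 in Sca1-MALT1, against 9.31 to 9.87 in WT, and that of 6 measured monocyte and macrophage markers was 8.77 to 10.34 in Sca1-MALT1, against 9.46 to 10.71 in WT. Stromal markers averaged 7.05 to 7.67 in Sca1-MALT1, against 5.95 to 7.40 in WT. The mean of 9 measured T cell markers was 8.71 in Sca1-MALT1 replicate 4 and 9.67 to 9.91 in the other Sca1-MALT1 arrays, against 8.75 to 9.005 in WT. Of these 9 differences 8 were positive, with Zap70 at 0.80 and Cd28 at 1.69. No gene of the erythroid, endothelial, mature B cell, T cell, monocyte and macrophage, and stromal lists passed by limma. The groups also did not overlap in 2 of 9 erythroid, 2 of 8 mature B cell and 2 of 9 T cell genes, against 7.13% of all genes. Of 9 stromal genes they did not overlap in 3 with higher and 1 with lower signal in Sca1-MALT1, against the same 7.13%. In the stem and progenitor, neutrophil, and monocyte and macrophage lists the count was 0. The part of these markers in the values of the p53 targets was not tested.

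Sca1-MALT1 replicate 4, the array with the highest Cdkn1a signal, also had the highest mean of 9 neutrophil markers (13.81, against 10.33 to 12.30 in the other Sca1-MALT1 arrays and 12.04 to 12.74 in WT) and of 26 proliferation genes (10.96, against 9.90 to 10.52 in the other Sca1-MALT1 arrays and 10.14 to 10.70 in WT). The same array had the lowest Sesn1 signal of all 8 and the lowest Zmat3 signal among the Sca1-MALT1 arrays. Its mean of 9 T cell markers was 8.71, against 9.67 to 9.91 in the other Sca1-MALT1 arrays and 8.75 to 9.005 in WT. RNA quality, read as the 3′ minus 5′ signal of the Gapdh controls, was 2.25 to 3.20 in Sca1-MALT1, against 2.70 to 2.92 in WT (exact permutation p = 0.607 over 56 splits), and that of the beta-actin controls was 1.25 to 2.49, against 1.45 to 2.14 (exact permutation p = 0.679). In both controls Sca1-MALT1 replicate 4 had the lowest value of all 8 arrays and Sca1-MALT1 replicate 5 the highest. The permutation test compares group means and does not address single arrays. The part of these measures in the spread of Cdkn1a, Sesn1 and Zmat3 was not tested.

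**Figure D5:**
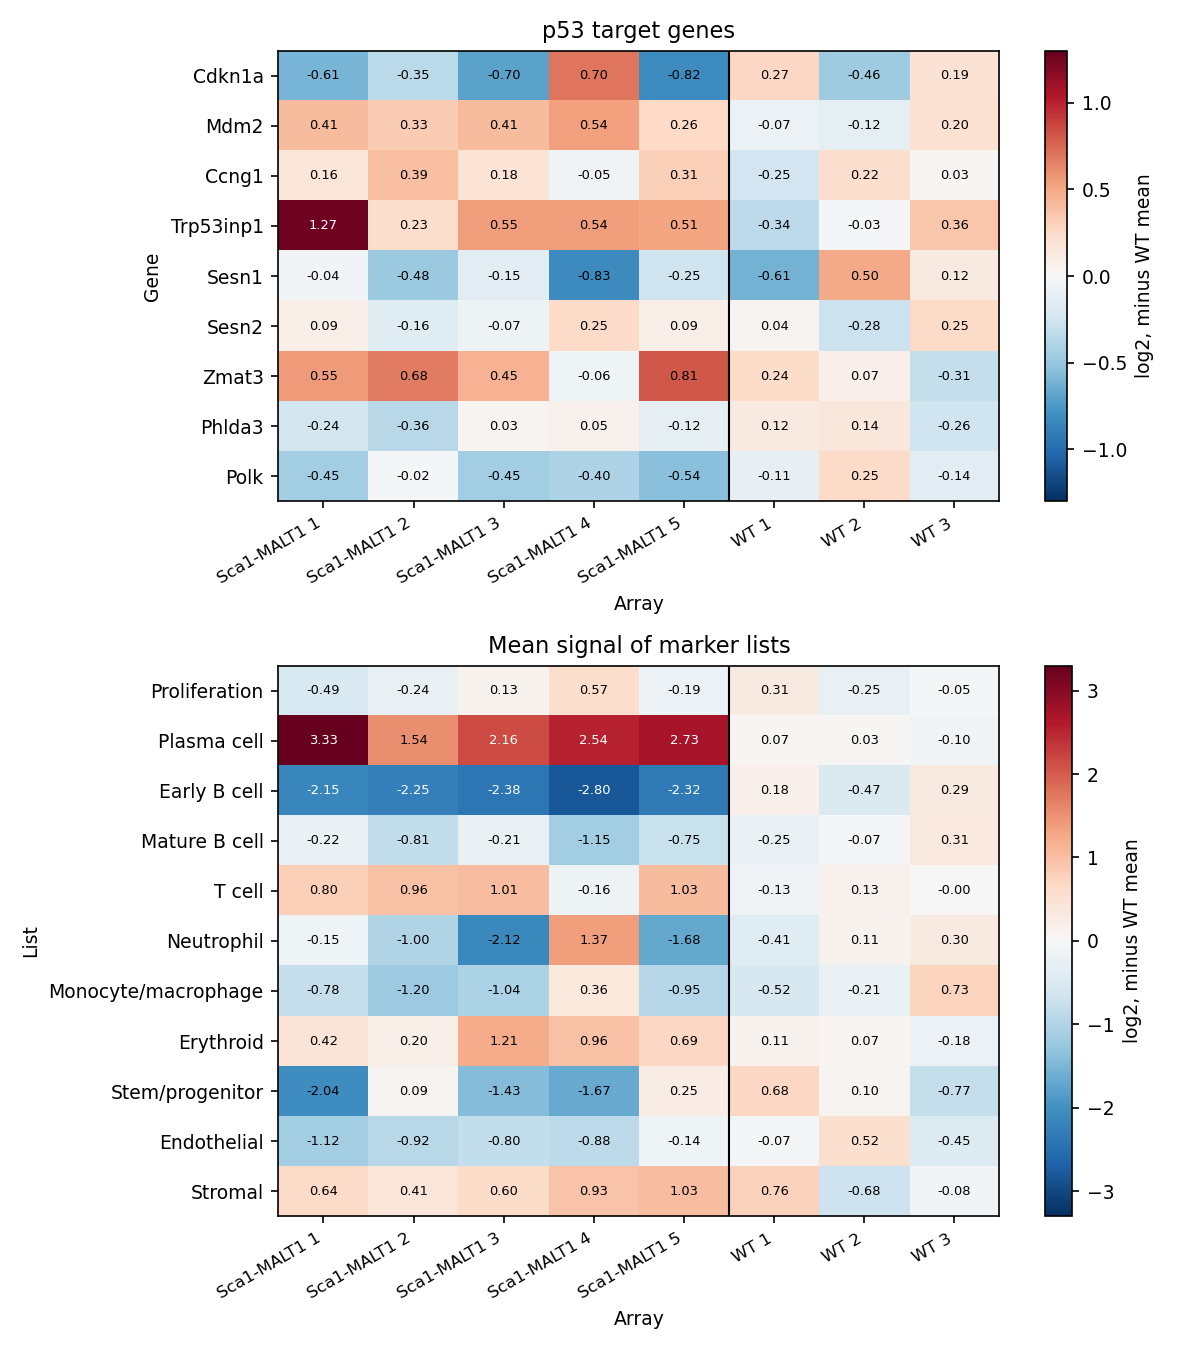
Deviation of each array from the WT mean (log2, with its value in each cell) for the 9 target genes, upper panel, and for the mean signal of 11 marker lists, lower panel; columns are the 5 Sca1-MALT1 and then the 3 WT arrays, and the panels have different colour scales. Deviations of the target genes lie between -0.83 (Sesn1 in Sca1-MALT1 replicate 4) and 1.27 (Trp53inp1 in Sca1-MALT1 replicate 1), against up to 3.33 for plasma cell markers.

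WT replicate 2 had the highest signal of all arrays for Sesn1, Phlda3 and Polk and the lowest for Mdm2 and Sesn2, so it was an extreme for 5 of the 9 genes. WT replicate 1 was the lowest for Ccng1 and Trp53inp1. Sca1-MALT1 arrays were extremes too: replicate 4 was the highest for 2 genes and the lowest for 1, and replicate 5 the highest for 1 and the lowest for 2. The median deviation of the 9 genes from the WT mean was -0.02 to 0.09 in the Sca1-MALT1 arrays, against -0.07 to 0.12 in the WT arrays, so the ranges of the genotypes overlapped.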

How the data were processed

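The authors deposited log2 signals computed with RMA, a method that corrects background, normalizes by quantiles and summarises each probe set, as the submitters' processing notes name it without a version. That the scale is log2 follows from the range, 2.73 to 15.41, and from array medians of 6.40 to 6.48. No further normalization was applied. RMA gives no detection call, and signals of different probe sets are not on a common scale.

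Of 45101 probe sets, 64 were controls and were left out. The platform annotation gave a single symbol to 34945 of the rest and several symbols to 932, and it did not list 9160. Symbols were updated through Entrez identifiers with RefSeq of GRCm38.p6 (18031 of 18193 genes matched). Each gene was represented by its brightest probe set (mean over 8 arrays) and tested for genotype, with no covariate, by limma 3.58.1 (R 4.3.3) with Benjamini-Hochberg adjustment over all genes; values of dimmer probe sets come from the same fit over all 45037 probe sets. The fit was run on simulated independent values with planted changes larger than any difference of the target genes. Only the sign and mean error of those changes were checked, so smaller changes were not covered. Differences are Sca1-MALT1 minus WT with SE, group values are mean ± SD, and the number of arrays limits the precision.

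The target genes, the lists and the tests were chosen with earlier results of these data known. Named beside the target genes were up to 4 genes per pathway list with the lowest unadjusted p, any past the threshold, and markers where their list is described, up to 2 per list by the lowest unadjusted p. Other names are marked as chosen after their values were seen. Alternatives were quantile normalization, median centring, leaving out dim genes, averaging over a gene's probe sets, all probe sets, robust variance with an intensity trend, array weights, other thresholds, the replicate block and leaving out each array.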

Additional observations from a re-analysis of the deposited data

Results flagged for a closer look

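In Sca1-MALT1 replicate 2 the brightest Polk probe set read 8.99, far from the other 4 Sca1-MALT1 arrays, whose highest was 8.60 and lowest 8.46. The gap was 0.733 of the range of the group, above Dixon's critical value of 0.71 for 5 samples. It was the only one of 20 probe sets to stand out in this way, and chance flags about 1 in 20. Without this array the groups of Polk did not overlap and the log2 difference was -0.46 (adjusted p = 0.282 by limma).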

How the results depend on the processing

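None of the 9 target genes passed under any of the 18 alternatives, where the lowest adjusted p was 0.19, for Mdm2 with array weights. Of 152 differences of single genes under these alternatives, 148 kept their sign and all stayed short of the threshold. Those at other thresholds, with robust variance and an intensity trend, or without dim genes equal the main ones. Their sign could not change. The 4 with a turned sign were those of Sesn2, at -0.19 with the mean of its probe sets, -0.045 with the replicate block, -0.011 without Sca1-MALT1 replicate 4 and -0.10 without WT replicate 2. The median difference was 0.12 without dim genes (Phlda3 left out), -0.13 with the average over a gene's probe sets, -0.10 over all probe sets and -0.045 with the replicate block, and -0.056 to 0.16 with 1 array left out. Groups that do not overlap were found in 0 genes with the mean of probe sets, where Mdm2 lost its separation, and in 1 to 3 genes with 1 array left out: Trp53inp1 and Polk joined Mdm2 without Sca1-MALT1 replicate 2, Zmat3 without Sca1-MALT1 replicate 4, Sesn1 without WT replicate 1, and Trp53inp1 and Phlda3 without WT replicate 3, while the share over all genes rose to between 8.38% and 15.8%. Over all genes the count past the threshold was 27 over all probe sets, 28 with array weights, 8 at a threshold of 0.01, 38 at 0.1 and 8 to 38 with 1 array left out. With the replicate block it was 0 by limma (2034 at an unadjusted p under 0.05). Sca1-MALT1 arrays whose number no WT array has do not enter the difference in that fit. It rests on the same-numbered arrays alone, with fewer degrees of freedom. Same-numbered arrays did not deviate together (correlations of -0.22, -0.04 and 0.006), and no WT array correlated best with its own number. The labels do not say whether equal numbers mark pairs, and 3 correlations are too few to decide it. The cause of these shifts was not tested. Dim probe sets of Mdm2 and Polk, below the array medians, limit what can be said of them.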

Other observations

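Paralogues of the target genes did not pass either. Of 16 measured, 6 differences were positive and 10 negative, with a median of -0.03. An unadjusted limma p under 0.05 was found for 1 of the 16, against 10.2% of all genes. The groups did not overlap in 1 of the 16, against 7.13% of all genes. Both counts are of Ccng2, the cyclin G2 gene, which FOXO factors induce in quiescent cells. It read 10.28 to 11.09 in Sca1-MALT1 and 11.13 to 11.81 in WT, groups that did not overlap, with a log2 difference of -0.56 (SE 0.23, adjusted p = 0.457), against 0.20 for Ccng1. Polh, which encodes the translesion polymerase eta, stood at 0.19, against -0.37 for Polk. Cdkn1c, which encodes the cyclin-dependent kinase inhibitor p57, stood at -0.45 (SE 0.35) and Phlda1 at -0.57 (SE 0.54).

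Of 26 measured proliferation genes 10 differences were positive and 16 negative, with a median of -0.07, and none passed by limma. An unadjusted limma p under 0.05 was found for 1 of the 26, against 10.2% of all genes. The groups did not overlap in 1 of the 26, the same gene, against 7.13% of all genes. Ccne1, which encodes cyclin E1, the cyclin that p21 restrains at entry into S phase, read higher in every Sca1-MALT1 array than in every WT array, with means of 10.34 ± 0.26 (n = 5) in Sca1-MALT1 and 9.81 ± 0.18 (n = 3) in WT (difference 0.53, SE 0.17, adjusted p = 0.361). The helicase genes Mcm4, Mcm7 and Mcm5 stood at -0.28, -0.27 and -0.43.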
